A study of Homo sapiens with 12 samples.

Results

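The RNA of 10 enzymes of nucleotide synthesis, PPAT, GART, PFAS, PAICS, ATIC, IMPDH1, IMPDH2, CAD, UMPS and CTPS1, was followed through RNA sequencing of RCC4 cells, a line derived from a clear cell renal cell carcinoma. They are a list of named genes of the pathway. The rule that lists them uses no measured value, but they were chosen with earlier results of these data known. Each symbol was matched to 1 Ensembl gene in the table of counts, giving 10 of 60663 genes. The samples were VHL-negative cells under 5 µM JQ1, VHL-negative cells under DMSO, VHL-positive cells under 5 µM JQ1 and VHL-positive cells under DMSO, with 3 libraries in each of the 4 groups. VHL-negative cells carry the loss of VHL, the tumour suppressor whose product marks hypoxia-inducible factors for degradation, and VHL-positive cells are the same line after VHL was put back. JQ1 blocks the bromodomains of BET proteins and is named in the labels as an inhibitor of MYC, and DMSO is its solvent. All cells grew in high-glucose medium with serum and geneticin. How VHL was put back, whether a line is 1 clone, the hours of treatment, and whether the replicates were separate cultures are not described, so the p-values may measure technical spread only.

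Purines and pyrimidines are built by separate routes that meet at phosphoribosyl pyrophosphate (PRPP), the activated sugar that both need. PPAT starts the purine route, GART, PFAS, PAICS and ATIC carry the ring to inosine monophosphate (IMP), and IMPDH1 and IMPDH2 draw IMP towards guanine nucleotides. CAD starts the pyrimidine route, UMPS finishes uridine monophosphate, and CTPS1 turns the uridine into the cytidine nucleotide. Several of these genes are textbook targets of MYC, which binds the E-box CACGTG with its partner MAX, and cells that divide need the routes to copy DNA and make RNA.

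On GRCh38 with the GENCODE 29 annotation, all 10 are protein-coding genes. PPAT (ENSG00000128059, chr4:56393362-56435615, minus strand) and PAICS (ENSG00000128050, chr4:56435741-56464579, plus strand) stand head to head, with 125 bases between their annotated starts. The others are GART (ENSG00000159131, chr21:33503931-33543491, minus strand), PFAS (ENSG00000178921, chr17:8247618-8270491, plus strand), ATIC (ENSG00000138363, chr2:215311817-215349773, plus strand), IMPDH1 (ENSG00000106348, chr7:128392277-128410252, minus strand), IMPDH2 (ENSG00000178035, chr3:49024325-49029408, minus strand), CAD (ENSG00000084774, chr2:27217390-27243943, plus strand), UMPS (ENSG00000114491, chr3:124730366-124749273, plus strand) and CTPS1 (ENSG00000171793, chr1:40979335-41012565, plus strand). The exons of GART share 3.55% of their length with SON on the other strand. The sources used here do not state whether counting used the strand, so reads there could belong to either gene.

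RefSeq promoter sequences on GRCh38.p14, each from 250 bases before a start to 50 bases after it, were found for 9 of the 10 genes, in 14 windows. In the printed sequences capitals mark the E-box CACGTG, which reads the same on both strands. PAICS and GART have 3 windows each. The 4 windows printed here are 1 for each purine-ring enzyme whose RNA fell under JQ1 in at least 1 line. They come from chr4:56435502-56435801 (PAICS, plus strand), chr2:215311809-215312108 (ATIC, plus strand), chr17:8249039-8249338 (PFAS, plus strand) and chr21:33542843-33543142 (GART, minus strand).
PAICS: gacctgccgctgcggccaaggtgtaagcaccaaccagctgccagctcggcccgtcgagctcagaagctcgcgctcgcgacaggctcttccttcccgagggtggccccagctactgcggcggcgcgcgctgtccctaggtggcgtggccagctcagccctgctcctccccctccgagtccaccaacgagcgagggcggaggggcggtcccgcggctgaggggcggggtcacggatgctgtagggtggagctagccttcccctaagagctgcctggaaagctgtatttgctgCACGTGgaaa
ATIC: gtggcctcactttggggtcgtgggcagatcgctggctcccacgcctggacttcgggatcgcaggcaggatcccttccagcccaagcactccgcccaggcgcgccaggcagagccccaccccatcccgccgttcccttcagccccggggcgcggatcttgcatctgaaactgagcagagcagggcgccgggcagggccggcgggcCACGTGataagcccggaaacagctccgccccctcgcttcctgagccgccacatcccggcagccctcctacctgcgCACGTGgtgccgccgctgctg
PFAS: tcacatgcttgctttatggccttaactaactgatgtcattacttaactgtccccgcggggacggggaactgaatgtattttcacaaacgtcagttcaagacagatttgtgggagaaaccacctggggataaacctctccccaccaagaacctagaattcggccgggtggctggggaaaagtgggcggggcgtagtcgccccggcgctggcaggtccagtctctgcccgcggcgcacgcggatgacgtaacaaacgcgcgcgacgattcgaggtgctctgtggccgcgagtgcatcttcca
GART: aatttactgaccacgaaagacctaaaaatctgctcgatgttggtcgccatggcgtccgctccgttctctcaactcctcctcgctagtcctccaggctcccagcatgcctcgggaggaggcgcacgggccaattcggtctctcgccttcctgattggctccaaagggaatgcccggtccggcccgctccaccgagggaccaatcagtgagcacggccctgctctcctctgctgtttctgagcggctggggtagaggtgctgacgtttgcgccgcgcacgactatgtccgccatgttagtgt

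An E-box stood in 3 of the 14 windows and in 3 of the 9 genes, PPAT, PAICS and ATIC, against 7.26% of all 35116 RefSeq windows and 8.77% of all 27305 genes with a window. PPAT and PAICS hold the same E-box, at chr4:56435792-56435797. It lies 182 to 177 bases before the PPAT start and 40 to 45 bases after the PAICS start of the printed window, counting each start base as 0. The other PAICS windows have no E-box. ATIC had 2, at 46 to 41 bases before its start and 29 to 34 bases after it. The printed PFAS and GART windows have none. The CCAAT box (CCAAT on either strand), found in 34.61% of all windows, occurred 3 times in the GART window printed. The GC box (GGGCGG on either strand), found in 44.95% of all windows, occurred 1 time in the PFAS window, 3 times in that of PAICS and 2 times in that of ATIC. These matches describe letters and do not show that a factor bound there.

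**Figure D1:**
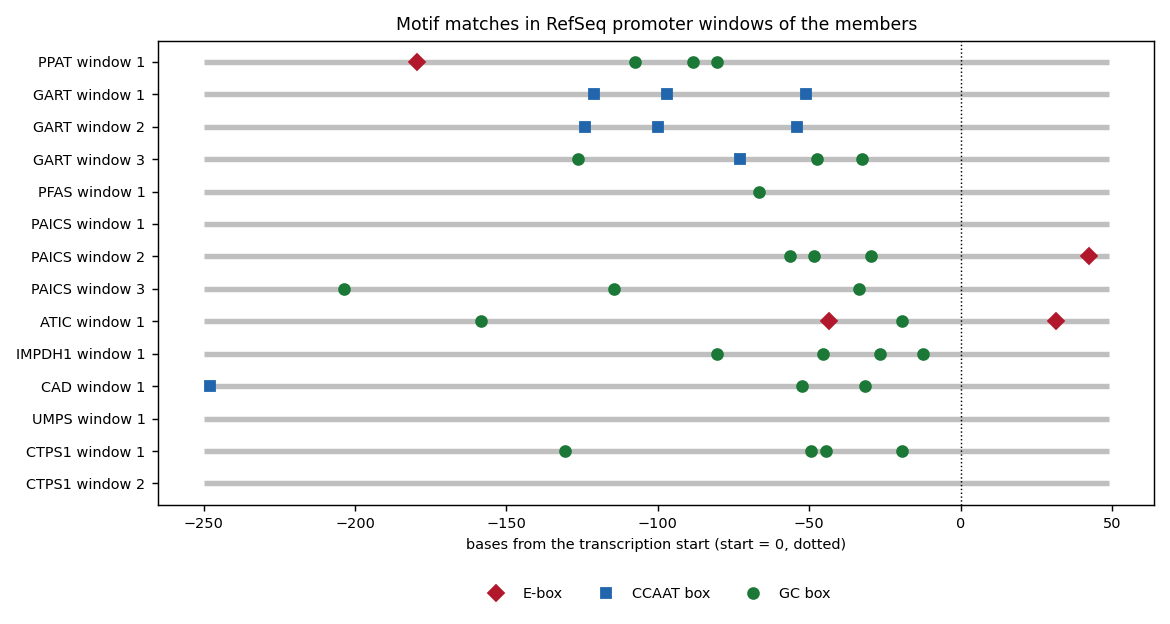
Motif matches in the RefSeq promoter windows of 9 nucleotide synthesis genes, 1 line per window, with distance from the transcription start in bases on the x axis (start = 0). Diamonds are E-boxes, squares CCAAT boxes and circles GC boxes; E-boxes appear in 1 window each of PPAT, PAICS and ATIC.

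Total counts ran from 15452949 in VHL-negative JQ1 replicate 2 to 32502310 in VHL-positive DMSO replicate 3. VHL itself stood at 30.5 to 35.2 CPM (the count as a share of the TMM-scaled library size) in VHL-negative JQ1 libraries, at 24.9 to 28.2 CPM in VHL-negative DMSO libraries, at 196 to 221 CPM in VHL-positive JQ1 libraries and at 64.6 to 78.9 CPM in VHL-positive DMSO libraries. The authors' deposited table gives VHL log2 1.60 for JQ1 against DMSO in VHL-positive and 0.28 in VHL-negative cells. In VHL-positive cells the drug and the VHL RNA level thus changed together. The part of that VHL level in comparisons that use the VHL-positive JQ1 libraries was not tested. MYC measured 131 to 189 CPM under JQ1 and 283 to 439 CPM under DMSO in VHL-negative cells, and 148 to 183 CPM under JQ1 and 125 to 221 CPM under DMSO in VHL-positive cells. HILPDA, the lipid droplet gene named in the series title, stood at 108 to 114 CPM under JQ1 and 19.0 to 25.9 CPM under DMSO in VHL-negative cells. The 9 renal markers summed to between 899 and 1930 CPM in every library, whereas the 5 endothelial markers summed to at most 10.1 CPM, the 5 leukocyte markers to at most 4.90 CPM and the 5 fibroblast markers to at most 10.6 CPM. The renal sum does not show each marker. Under DMSO single renal markers ran from log2 -3.61 to 9.30, VHL-negative against VHL-positive. Of the 9, 1 was higher and 5 were lower, where 14.8% of all tested genes were higher and 15.9% lower. CD3E, DCN, LUM, KDR and TEK had 5 counts or fewer in every library. Other markers of these lists were high enough to test. Under DMSO 1 of 1 endothelial, 1 of 2 leukocyte and 1 of 2 fibroblast markers tested were higher in VHL-negative cells, and 0 were lower. The highest was a fibroblast marker at log2 2.51. Mitochondrial genes took 25.3% of counts in VHL-negative DMSO replicate 1, against 13.05% and 9.90% in replicates 2 and 3 of its group. In the other groups their share ran from 15.6 to 21.8%. A pair of DMSO libraries stood apart by their share of small structural RNA, which was 0.438% of counts in VHL-negative replicate 1 and 0.377% in VHL-positive replicate 2, against 0.812 to 2.77% in the other 10. VHL-positive DMSO replicate 2 was also the highest of its group for 9 of the 10 enzymes, while it was the highest for 37.2% of all tested genes. Its 16 proliferation genes summed to 3677 CPM, against 2231 and 2514 CPM in the other VHL-positive DMSO libraries. VHL-negative JQ1 replicate 1 was the highest of its group for 9 of the 10, and for 45% of all tested genes. The part of these libraries in the results was not tested beyond the values without them that are given below.

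Added together, the 10 enzymes took 1203, 903 and 1014 CPM in the VHL-negative JQ1 libraries and 1484, 1294 and 1341 CPM in the VHL-negative DMSO libraries, so that all 3 JQ1 libraries lay below all 3 DMSO libraries. In VHL-positive cells they took 1048, 1008 and 1051 CPM under JQ1 and 1034, 1393 and 1147 CPM under DMSO, and these ranges overlapped. Levels were also taken per kilobase of exon, with all annotated exons of a gene merged. That length ran from 2773 bases for IMPDH2 to 11517 for CTPS1 and can exceed the transcript made, so the order of genes is approximate. On this scale IMPDH2 had the highest level in 3 of the 4 groups, with 72.6 ± 19.6 CPM per kilobase in VHL-negative JQ1 cells, 71.3 ± 7.91 in VHL-negative DMSO cells and 68.0 ± 3.52 in VHL-positive JQ1 cells (SD, n = 3 libraries each). In VHL-positive DMSO cells IMPDH2 stood at 37.3 ± 2.53 CPM per kilobase, within the spread of ATIC at 39.0 ± 8.87. PPAT, the entry enzyme of the purine route, was the lowest of the 10 in every group, at 4.00 to 6.22 CPM per kilobase. In VHL-negative DMSO cells the order from the top was IMPDH2, PAICS, ATIC, CAD, GART, PFAS, UMPS, IMPDH1, CTPS1 and PPAT. There PAICS (37.2 ± 4.03) and ATIC (36.0 ± 10.8), GART (21.4 ± 1.56) and PFAS (21.1 ± 1.42), and UMPS (8.68 ± 0.680) and IMPDH1 (8.28 ± 0.522) did not differ beyond their spread.

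**Figure D2:**
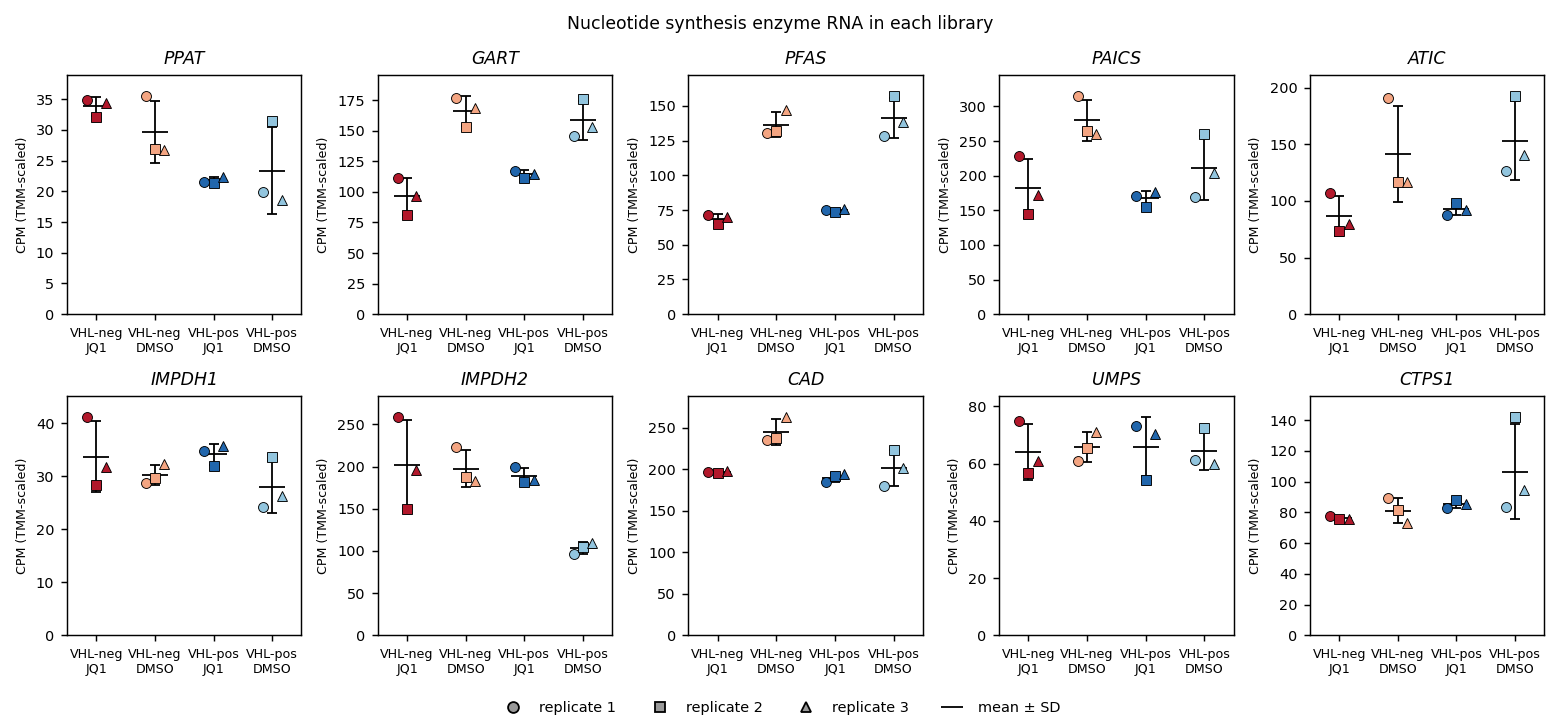
TMM-scaled CPM of each nucleotide synthesis enzyme in all 12 libraries, by group on the x axis, with a bar at the mean ± SD of 3 libraries. Markers give the replicate number; PFAS libraries separate by treatment in both lines, and IMPDH2 is lowest in VHL-positive DMSO cells, at 96.0 to 110 CPM against 150 to 258 CPM elsewhere.

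JQ1 against DMSO was tested first in VHL-negative cells. There 4 of the 10 enzymes fell, all of them steps that build the purine ring, 0 rose and 6 did not pass the threshold, an adjusted p under 0.05. Over all 20714 tested genes 17.5% fell and 14.6% rose, 32.1% in all. The median change of the 10 was log2 -0.20, against 0.03 for all tested genes. In bulk RNA, less RNA per cell cannot be told apart from fewer cells that make it.

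PFAS, which uses glutamine to add a nitrogen to the growing ring, had 71.4, 65.0 and 69.7 CPM in VHL-negative JQ1 cells and 130, 132 and 147 CPM in VHL-negative DMSO cells. The groups were far apart and did not overlap, as was the case for 22.3% of tested genes in this direction. PFAS was 1.99-fold lower under JQ1 (log2 -0.99, SE 0.117, edgeR adjusted p = 1.25e-05). GART, a trifunctional enzyme with steps before and after that of PFAS, had 111, 81.0 and 96.8 CPM under JQ1 and 177, 153 and 168 CPM under DMSO, again without overlap. It was 1.72-fold lower (log2 -0.78, SE 0.133, edgeR adjusted p = 0.000343). For both genes the call held in each of 25 alternative settings.

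PAICS, which joins the carboxylase and the succinocarboxamide synthetase of the route in 1 protein, had 229, 145 and 172 CPM in VHL-negative JQ1 cells and 315, 264 and 260 CPM in VHL-negative DMSO cells. ATIC, which closes the ring to IMP, had 107, 73.6 and 79.6 CPM under JQ1 and 191, 117 and 117 CPM under DMSO. Neither gene overlapped between the groups, and replicate 1 was the highest in each group for both. PAICS fell by 0.62 on the log2 scale (SE 0.178, edgeR adjusted p = 0.0140) and ATIC by 0.70 (SE 0.204, edgeR adjusted p = 0.0148). Both calls were lost without VHL-negative DMSO replicate 1, at log2 -0.53 for PAICS (edgeR adjusted p = 0.0640) and log2 -0.43 for ATIC (edgeR adjusted p = 0.113), and without VHL-negative JQ1 replicate 2 or 3, at log2 -0.47 and -0.57 for PAICS and log2 -0.59 and -0.64 for ATIC. Over the alternatives the adjusted p ran from 0.00091 to 0.0976 for PAICS and from 0.000107 to 0.113 for ATIC.

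The entry enzyme PPAT had 34.9, 32.1 and 34.5 CPM in VHL-negative JQ1 cells and 35.5, 26.9 and 26.7 CPM in VHL-negative DMSO cells, which overlap (log2 0.19, edgeR adjusted p = 0.437). Its 95% interval was log2 -0.18 to 0.56, and its difference from PAICS, the head-to-head neighbour, was not tested. CAD, which holds the first 3 activities of the pyrimidine route in 1 protein, had 197, 196 and 198 CPM under JQ1 and 235, 237 and 263 CPM under DMSO. These values did not overlap, yet CAD missed the threshold (log2 -0.32, SE 0.118, edgeR adjusted p = 0.0509), and over the alternatives its adjusted p ran from 0.0152 with DESeq2 to 0.205. UMPS, IMPDH1, IMPDH2 and CTPS1 lay between log2 -0.09 and 0.16 with overlapping groups. Their 95% intervals together ran from log2 -0.43 to 0.48, so changes of up to that size are not excluded with 3 libraries per group.

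In VHL-positive cells 3 of the 10 enzymes fell under JQ1, 1 rose and 6 did not pass, where 16.5% of all tested genes fell and 15.3% rose, 31.8% in all. The median change was log2 -0.21 for the 10 and -0.03 for all tested genes. It was log2 -0.01 for the 10 without DMSO replicate 2, and likewise without the DMSO library with least structural RNA in each line. PFAS had 75.2, 73.9 and 75.9 CPM in VHL-positive JQ1 cells and 129, 157 and 138 CPM in VHL-positive DMSO cells. Its groups did not overlap, as for 24% of tested genes in this direction, and it was 1.88-fold lower under JQ1 (log2 -0.91, SE 0.117, edgeR adjusted p = 3.04e-05). This call held in each of 25 alternatives.

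GART had 117, 111 and 115 CPM in VHL-positive JQ1 cells and 146, 176 and 153 CPM in VHL-positive DMSO cells. ATIC had 87.5, 98.4 and 92.1 CPM under JQ1 and 126, 192 and 141 CPM under DMSO. For both, all JQ1 libraries lay below all DMSO libraries, and DMSO replicate 2 was the highest. GART fell by 0.47 on the log2 scale (SE 0.133, edgeR adjusted p = 0.0133) and ATIC by 0.72 (SE 0.204, edgeR adjusted p = 0.0126). Without DMSO replicate 2 the change was log2 -0.37 for GART (edgeR adjusted p = 0.0741) and log2 -0.51 for ATIC (edgeR adjusted p = 0.0833), and the calls were also lost without any 1 of the JQ1 libraries for GART, at log2 -0.47, -0.44 and -0.45, and without JQ1 replicate 1 or 3 for ATIC, at log2 -0.67 and -0.70. The adjusted p over all alternatives ran from 0.00117 to 0.0967 for GART and from 0.000234 to 0.0833 for ATIC.

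IMPDH2, the isoform of IMP dehydrogenase that is known to be high in dividing cells, rose in VHL-positive cells. It had 200, 182 and 184 CPM in VHL-positive JQ1 cells and 96.0, 104 and 110 CPM in VHL-positive DMSO cells. The groups did not overlap, as for 24.2% of tested genes in this direction. IMPDH2 was 1.82-fold higher under JQ1 (log2 0.87, SE 0.165, edgeR adjusted p = 0.000884), and it passed in each of 25 alternatives. IMPDH1, its paralog, had 34.7, 32.0 and 35.8 CPM under JQ1 and 24.2, 33.6 and 26.3 CPM under DMSO, which overlap through DMSO replicate 2 (log2 0.29, edgeR adjusted p = 0.171). Without that replicate IMPDH1 passed (log2 0.46, edgeR adjusted p = 0.0451), and over the alternatives its adjusted p ran from 0.0419 to 0.429. The table also holds 10 copies named as pseudogenes of IMPDH1, which together had 10.3% as many counts as IMPDH1, with IMPDH1P10 the highest at 3.46%. The split of reads between IMPDH1 and these copies is uncertain.

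The remaining enzymes overlapped between treatments in VHL-positive cells. PAICS had 171, 155 and 176 CPM under JQ1 and 169, 261 and 204 CPM under DMSO (log2 -0.34, edgeR adjusted p = 0.165). CTPS1 had 83.0, 88.1 and 85.2 CPM under JQ1 and 83.5, 142 and 94.3 CPM under DMSO (log2 -0.32, edgeR adjusted p = 0.151), with DMSO replicate 2 far above every other library. Without that replicate the change was log2 -0.14 for PAICS (edgeR adjusted p = 0.615) and log2 -0.04 for CTPS1 (edgeR adjusted p = 0.86). With libraries scaled by total counts alone both passed, PAICS at log2 -0.44 (edgeR adjusted p = 0.0364) and CTPS1 at log2 -0.42 (edgeR adjusted p = 0.0414), and CTPS1 also passed without DMSO replicate 1 (log2 -0.47, edgeR adjusted p = 0.0373). The adjusted p over the alternatives ran from 0.0364 to 0.615 for PAICS and from 0.0314 to 0.86 for CTPS1. PPAT, CAD and UMPS lay between log2 -0.10 and 0.03, and their 95% intervals together ran from log2 -0.47 to 0.34.

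**Figure D3:**
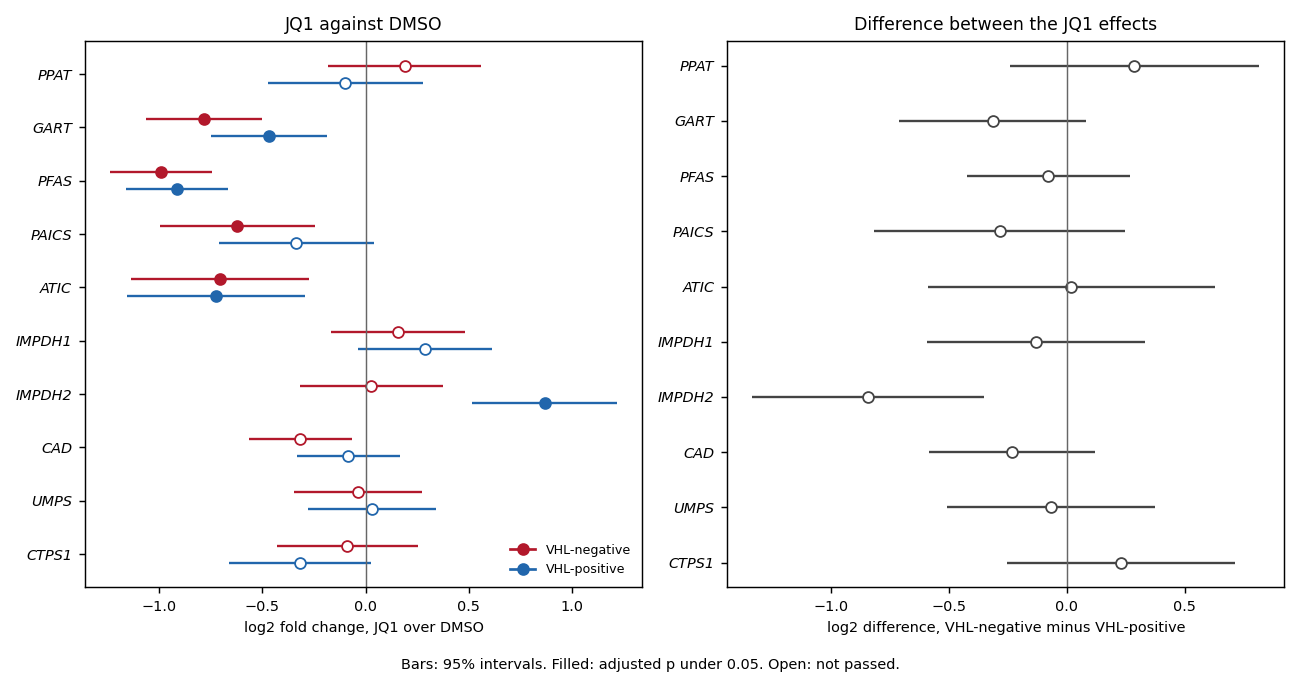
Left, log2 fold change of each nucleotide synthesis enzyme, JQ1 over DMSO, in VHL-negative and VHL-positive cells, and right, the difference between the 2 effects, with 95% intervals as bars and filled points at an adjusted p under 0.05. PFAS, GART and ATIC are filled and below 0 in both lines, IMPDH2 is filled at log2 0.87 in VHL-positive cells, and no difference is filled.

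Whether the JQ1 effect differed between the lines was tested directly with the interaction term. None of the 10 passed edgeR's quasi-likelihood test, where 1.21% of all tested genes did, 0.497% with a higher and 0.71% with a lower difference. These shares do not apply to an unadjusted p, for which none was computed, or to DESeq2, which called more genes in all. At an unadjusted p under 0.05, and likewise with DESeq2, 1 of the 10 passed. That 1 was IMPDH2, with a difference of log2 -0.84, VHL-negative minus VHL-positive (SE 0.232, 95% interval -1.33 to -0.35, edgeR adjusted p = 0.0767). It passed with DESeq2 (log2 -0.85, adjusted p = 0.0214), with no filter on low counts (log2 -0.89, edgeR adjusted p = 0.0129) and without VHL-negative JQ1 replicate 1 (log2 -1.09, edgeR adjusted p = 0.00532). Its adjusted p over the alternatives ran from 0.00532 to 0.329. For PFAS the difference was log2 -0.08 with a 95% interval of -0.42 to 0.27, and for ATIC it was log2 0.02 with a wider interval of -0.59 to 0.63. GART differed by log2 -0.31 (95% interval -0.71 to 0.08) and PAICS by log2 -0.28 (95% interval -0.81 to 0.25). Falls that passed in 1 line only, as for PAICS, are therefore not shown to differ between the lines. VHL RNA itself rose under JQ1 in VHL-positive cells, and its part in these differences was not tested.

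The effect of VHL status was examined next. Under DMSO 1 of the 10 enzymes was higher in VHL-negative cells, 0 were lower and 9 did not pass, where 14.8% of all tested genes were higher and 15.9% lower, 30.7% in all. IMPDH2 had 223, 187 and 183 CPM in VHL-negative DMSO cells and 96.0, 104 and 110 CPM in VHL-positive DMSO cells. All VHL-negative libraries lay above all VHL-positive ones, as for 21.5% of tested genes, and IMPDH2 was 1.91-fold higher (log2 0.94, SE 0.165, edgeR adjusted p = 0.000397). It passed in each of 25 alternatives, and the comparison shares its VHL-positive DMSO libraries with the JQ1 comparison above.

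PPAT had 35.5, 26.9 and 26.7 CPM in VHL-negative DMSO cells and 19.9, 31.5 and 18.6 CPM in VHL-positive DMSO cells (log2 0.35, edgeR adjusted p = 0.151). PAICS had 315, 264 and 260 CPM and 169, 261 and 204 CPM in the same groups (log2 0.40, edgeR adjusted p = 0.0978). CAD had 235, 237 and 263 CPM in VHL-negative DMSO cells and 180, 223 and 201 CPM in VHL-positive DMSO cells, without overlap (log2 0.28, edgeR adjusted p = 0.0824). All 3 passed without VHL-positive DMSO replicate 2, at log2 0.63 for PPAT (edgeR adjusted p = 0.00391), 0.59 for PAICS (edgeR adjusted p = 0.0227) and 0.37 for CAD (edgeR adjusted p = 0.0357). Their adjusted p over the alternatives ran from 0.00391 to 0.752, from 0.0227 to 0.567 and from 0.0357 to 0.289. CTPS1, with 89.3, 81.5 and 72.8 CPM in VHL-negative DMSO cells and 83.5, 142 and 94.3 CPM in VHL-positive DMSO cells, stood at log2 -0.39 (edgeR adjusted p = 0.0796). It passed without VHL-positive DMSO replicate 1 (log2 -0.54, edgeR adjusted p = 0.0185), while without VHL-positive DMSO replicate 2 it read log2 -0.12 (edgeR adjusted p = 0.517). Its adjusted p over the alternatives ran from 0.0150 to 0.517. GART, PFAS, ATIC, UMPS and IMPDH1 lay between log2 -0.11 and 0.11.

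Under JQ1 again 1 of the 10 was higher in VHL-negative cells, 0 were lower and 9 did not pass, where 19.7% of all tested genes were higher and 21.2% lower, 40.9% in all. Here the gene was PPAT, with 34.9, 32.1 and 34.5 CPM in VHL-negative JQ1 cells and 21.6, 21.4 and 22.3 CPM in VHL-positive JQ1 cells. The replicates lay close together and the groups did not overlap, as for 25.7% of tested genes in this direction. PPAT was 1.55-fold higher (log2 0.64, SE 0.177, edgeR adjusted p = 0.00949), a call lost when JQ1 replicate 3 of both lines was left out (log2 0.63, edgeR adjusted p = 0.0796, within a range of 0.000325 to 0.0796). IMPDH2 had 258, 150 and 196 CPM in VHL-negative JQ1 cells and 200, 182 and 184 CPM in VHL-positive JQ1 cells, which overlap (log2 0.09, 95% interval -0.25 to 0.44, edgeR adjusted p = 0.673). The other 8 lay between log2 -0.25 for GART and 0.12 for PAICS. CAD, at 196 to 198 CPM in VHL-negative JQ1 cells and 185 to 194 CPM in VHL-positive JQ1 cells, was higher without overlap, as for those 25.7%, and did not pass (log2 0.05, edgeR adjusted p = 0.758). Among the others PFAS (65.0 to 71.4 CPM in VHL-negative and 73.9 to 75.9 CPM in VHL-positive JQ1 cells) and CTPS1 (75.4 to 77.9 CPM and 83.0 to 88.1 CPM) were lower in VHL-negative cells without overlap, as were 27.2% of tested genes, yet neither passed (edgeR adjusted p = 0.405 and 0.451). GART passed without VHL-negative JQ1 replicate 1 (log2 -0.38, edgeR adjusted p = 0.0293), within a range of 0.0293 to 0.559.

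**Figure D4:**
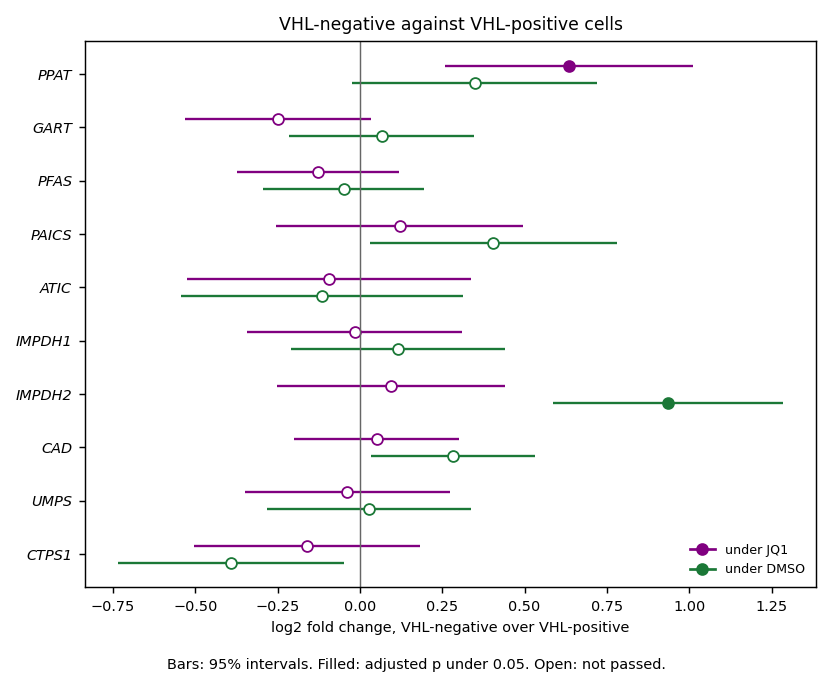
Log2 fold change of each nucleotide synthesis enzyme, VHL-negative over VHL-positive cells, under JQ1 and under DMSO, with 95% intervals as bars and filled points at an adjusted p under 0.05. IMPDH2 is filled at log2 0.94 under DMSO and PPAT at 0.64 under JQ1, and the other 18 points are open.

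The authors' deposited table of JQ1 against DMSO gave 5 of the 10 an adjusted p under 0.05 in VHL-negative cells, the same 4 ring enzymes and CAD. For CAD the authors' deposited table gives log2 -0.35 with an adjusted p of 0.00677, and for PFAS it gives log2 -1.02. In VHL-positive cells the authors' deposited table has GART (log2 -0.46), PFAS (log2 -0.91), ATIC (log2 -0.72) and IMPDH2 (log2 0.87) under the same limit, 4 in all. The share of all genes under that limit in the authors' values was not computed here, so these counts stand without a background.

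Over the 12 libraries GART, PFAS and ATIC varied most alike. The Pearson r of log2 CPM was 0.943 for GART and PFAS, 0.896 for GART and ATIC and 0.840 for PFAS and ATIC, and the lowest was -0.538 for IMPDH2 and CTPS1. PPAT and PAICS, which share a promoter region, had an r of 0.407. These values describe 12 libraries that share treatment and line, and carry no test. Of 7920 other genes at or above a mean of 4 log2 CPM, the 5 whose profile over the 12 libraries was most like the mean profile of the 10 enzymes were BUD13 (r = 0.985), ELAC2 (r = 0.981), ZDHHC6 (r = 0.977), POFUT1 (r = 0.970) and HNRNPF (r = 0.965).

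The genes around these 10 were read from lists of the rest of the pathway. Their counts under JQ1 stand beside 17.5% of all tested genes that fell and 14.6% that rose in VHL-negative cells (median log2 0.03), and 16.5% that fell and 15.3% that rose in VHL-positive cells (median log2 -0.03). Of 8 other genes of purine synthesis and PRPP supply, 0 rose and 1 fell under JQ1 in VHL-negative cells (median log2 -0.24), and 0 rose and 1 fell in VHL-positive cells (median log2 -0.03). In both lines it was PRPS1, which makes PRPP, with 43.0 to 50.8 CPM under JQ1 and 60.0 to 107 CPM under DMSO in VHL-negative cells (log2 -0.77, edgeR adjusted p = 0.00308). In VHL-positive cells PRPS1 had 47.7 to 55.6 CPM under JQ1 and 137 to 148 CPM under DMSO (log2 -1.47, edgeR adjusted p = 1.6e-05). Its near-identical paralog PRPS2 makes the split of reads between them uncertain.

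The list of 8 other pyrimidine genes includes NME1, NME2, NME4 and NME6, of a kinase family that is not particular to pyrimidines. Of the 8, 6 fell and 0 rose under JQ1 in VHL-negative cells (median log2 -0.96), and 5 fell and 0 rose in VHL-positive cells (median log2 -0.65). Over all tested genes 17.5% and 16.5% fell in these lines. CTPS2, the paralog of CTPS1, had 11.6 to 17.3 CPM under JQ1 and 29.9 to 32.9 CPM under DMSO in VHL-negative cells (log2 -1.06, edgeR adjusted p = 5.4e-05), while CTPS1 itself did not pass in either line. NME1 and NME6, nucleoside diphosphate kinases that charge the nucleotides, fell in both lines, NME1 by 1.32 in VHL-negative and 1.35 in VHL-positive cells on the log2 scale, NME6 by 1.03 and 0.90. NME1 lies beside its close paralog NME2, so the counts of the pair may be mixed. CMPK2, a mitochondrial kinase of pyrimidine monophosphates, was near the limit of detection, with 2 to 6 counts in the VHL-positive JQ1 libraries and 37 to 79 counts in the VHL-positive DMSO libraries (edgeR adjusted p = 7.66e-05).

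Deoxynucleotide genes split in both directions. Of 12, 4 rose and 3 fell under JQ1 in VHL-negative cells (median log2 -0.07), and 4 rose and 4 fell in VHL-positive cells (median log2 -0.34). SAMHD1, which breaks deoxynucleotides down, had 40.6 to 57.7 CPM under JQ1 and 27.8 to 31.1 CPM under DMSO in VHL-negative cells (log2 0.76, edgeR adjusted p = 0.00125), and it rose by log2 1.00 in VHL-positive cells. DTYMK, the thymidylate kinase, fell by 0.92 and 0.76 on the log2 scale in VHL-negative and VHL-positive cells. DCTD, a deaminase on the way to thymidylate, fell by 0.72 in VHL-negative cells, and TYMS, thymidylate synthase, by 0.86 in VHL-positive cells.

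The one-carbon genes supply the formyl groups that GART and ATIC add to the ring. Of 17 listed, 16 were tested, of which 5 fell and 0 rose under JQ1 in VHL-negative cells (median log2 -0.36), and 5 fell and 2 rose in VHL-positive cells (median log2 0.07). SLC19A1, the folate carrier, had 17.9 to 20.4 CPM under JQ1 and 39.4 to 47.3 CPM under DMSO in VHL-negative cells (log2 -1.19, edgeR adjusted p = 6.97e-05), and fell by 0.86 in VHL-positive cells. MTHFD1L, a mitochondrial formate-making enzyme, fell by 0.81 and 1.07 on the log2 scale in VHL-negative and VHL-positive cells. FPGS, which retains folates in the cell, fell by 0.39 in VHL-negative cells, a call lost in 7 of 25 alternatives. ALDH1L1, which removes formyl groups from the folate pool, rose in VHL-positive cells (log2 1.03, edgeR adjusted p = 0.00103).

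Of 25 salvage and breakdown genes 21 were tested, of which 6 fell and 1 rose under JQ1 in VHL-negative cells (median log2 -0.32), and 5 fell and 5 rose in VHL-positive cells (median log2 -0.18), where 17.5% of all tested genes fell and 14.6% rose in VHL-negative cells, and 16.5% fell and 15.3% rose in VHL-positive cells. ADA, adenosine deaminase, had 13.0 to 19.8 CPM under JQ1 and 38.8 to 45.2 CPM under DMSO in VHL-negative cells (log2 -1.38, edgeR adjusted p = 4.73e-06), and fell by 0.94 in VHL-positive cells. DPYD, which degrades uracil, and ADK, adenosine kinase, rose in VHL-positive cells by log2 0.64 and 0.57. The 16 proliferation genes, which could move with the whole pathway, gave 3 falls and 0 rises under JQ1 in VHL-negative cells (median log2 -0.13), and 6 falls and 0 rises in VHL-positive cells (median log2 -0.44). Their summed level was 2455 to 3257 CPM under JQ1 and 2951 to 3499 CPM under DMSO in VHL-negative cells, and 1693 to 2014 CPM under JQ1 and 2231 to 3677 CPM under DMSO in VHL-positive cells, and their part in the enzyme results was not tested.

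**Figure D5:**
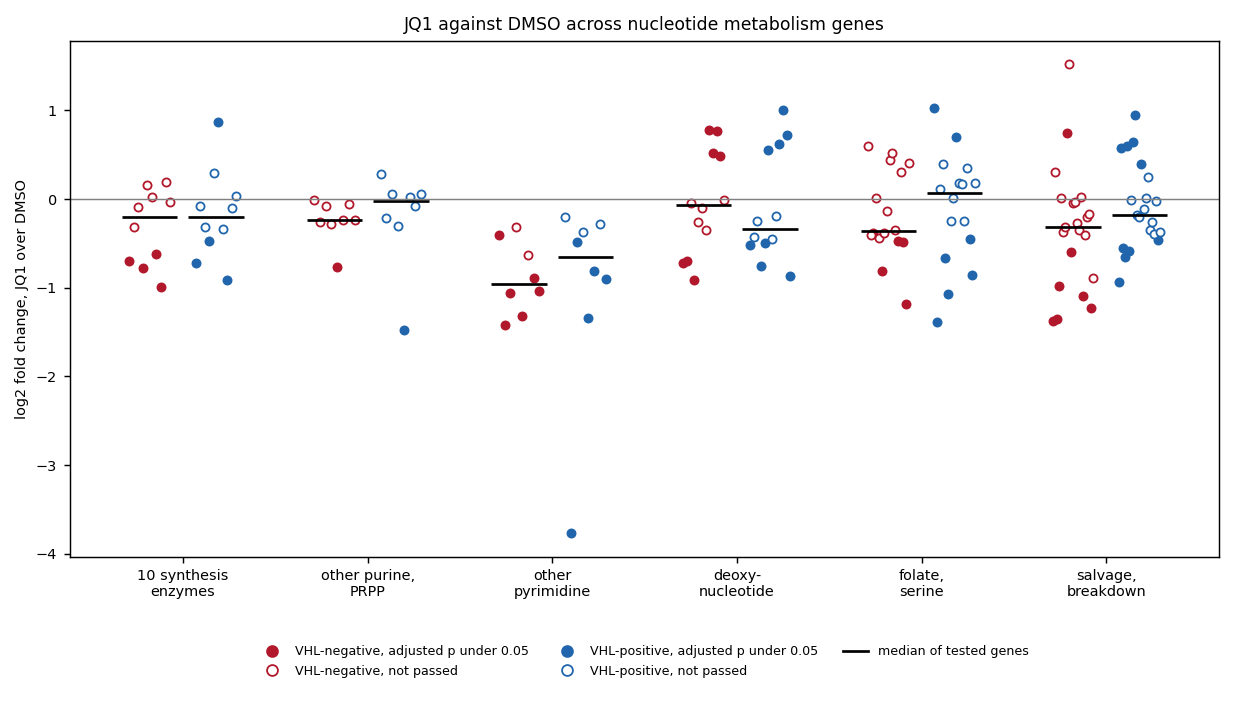
Log2 fold change, JQ1 over DMSO, of each tested gene in the 10 synthesis enzymes and 5 related lists, for VHL-negative and VHL-positive cells side by side, with filled points at an adjusted p under 0.05 and a bar at the median. The list of other pyrimidine genes has the lowest medians, log2 -0.96 in VHL-negative and -0.65 in VHL-positive cells. It includes NME1, NME2, NME4 and NME6, which are not particular to pyrimidines. The lowest point is CMPK2 in VHL-positive cells.

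Between the lines without drug, genes of each list passed in both directions, as did 14.8% of all tested genes that were higher and 15.9% that were lower in VHL-negative cells. Of the 8 other purine genes, 3 were higher and 2 lower in VHL-negative DMSO cells than in VHL-positive DMSO cells. PRPS2 had 101 to 119 CPM in VHL-negative and 43.1 to 62.2 CPM in VHL-positive cells (log2 1.06, edgeR adjusted p = 0.000256), whereas PRPS1 was lower (log2 -0.84, edgeR adjusted p = 0.00137), as was ADSS1, an adenylosuccinate synthase (log2 -1.56, edgeR adjusted p = 0.000208). Of the 8 other pyrimidine genes 3 were higher and 2 lower, CTPS2 being higher by log2 0.75 and NME4, a mitochondrial kinase, by log2 1.25. TYMS and GUK1, the guanylate kinase, were lower in VHL-negative DMSO cells by log2 -1.14 and -0.63, and RRM2, a ribonucleotide reductase subunit, was higher by log2 0.87, among 1 higher and 2 lower of 12 deoxynucleotide genes. One-carbon genes gave 1 higher and 2 lower of 16, with ALDH1L1 at 0.810 to 1.05 CPM in VHL-negative and 6.69 to 13.1 CPM in VHL-positive cells (log2 -3.48, edgeR adjusted p = 1.48e-08). Salvage and breakdown genes gave 6 higher and 2 lower of 21. AMPD3, an AMP deaminase, had 22.9 to 30.2 CPM in VHL-negative and 1.46 to 2.48 CPM in VHL-positive DMSO cells (log2 3.66, edgeR adjusted p = 9.04e-10). GDA, guanine deaminase, had 0 to 1 counts in the VHL-negative DMSO libraries and 286 to 433 counts in the VHL-positive ones, and 0 to 3 counts against 376 to 768 counts under JQ1.

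Under JQ1, the purine list gave 2 higher and 2 lower of 8 in VHL-negative cells, the pyrimidine list 1 higher and 0 lower of 8, the deoxynucleotide list 1 higher and 2 lower of 12, the one-carbon list 2 higher and 3 lower of 16, and the salvage list 5 higher and 5 lower of 21. Over all tested genes 19.7% were higher and 21.2% lower. RRM2 had 299 to 420 CPM in VHL-negative JQ1 cells and 77.7 to 116 CPM in VHL-positive JQ1 cells (log2 1.85, edgeR adjusted p = 1.04e-05). FPGS was lower in VHL-negative JQ1 cells (log2 -1.03, edgeR adjusted p = 7.62e-06), and so were GUK1 (log2 -1.28, edgeR adjusted p = 7.47e-06) and APRT, the adenine salvage enzyme (log2 -0.85, edgeR adjusted p = 0.000517). Proliferation genes gave 8 higher and 1 lower of 16 under JQ1 and 2 higher and 1 lower under DMSO, VHL-negative against VHL-positive.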

How the data were processed

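Total RNA was treated with DNase, rid of ribosomal RNA and sequenced, per the labels' protocols. The deposited table holds raw counts per Ensembl gene. Per the submitters' processing notes, the build was GRCh38 and the tools were DESeq2 1.30.1, featureCounts, Subread 2.0.3 and STAR 2.7.8, in no given order. The authors' deposited comparison tables give log2 fold changes with standard errors, a test statistic that is a score, p-values, and a mean of scaled counts.

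Counts were fitted in R 4.3.3 with edgeR 4.0.16 (TMM scaling, filterByExpr by group, quasi-likelihood test, 1 mean per group, all 12 libraries), leaving 20714 genes, all 10 enzymes included. p-values were Benjamini-Hochberg adjusted over those genes, and calls needed an adjusted p under 0.05. CPM levels use library sizes scaled by TMM, and log2 CPM for correlations used a prior count of 2. Total counts ran from 15452949 to 32502310 per library, and the intervals rest on the spread between libraries.

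Alternatives were median-of-ratios factors, total counts, other filters, DESeq2 1.42.0, limma-voom 3.58.1, subsets of genes or libraries and a replicate block. The fit without the DMSO library with least structural RNA in each line was added after seeing the data. The enzymes and all lists were chosen with earlier results of these data known. Named genes were the 10 enzymes, VHL, MYC and HILPDA, up to 3 called genes per list and comparison with the smallest p (not all are printed), and the 5 genes most like the mean profile. No replicates differed by sampling noise alone. The protocol also mentions MYC knockdown by short hairpin RNA, not analysed here.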

Additional observations from a re-analysis of the deposited data

Results flagged for a closer look

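In edgeR 0 of the 10 enzymes passed the test for a difference between the JQ1 effects of the lines, where 1.21% of all tested genes did. At an unadjusted p under 0.05, and likewise with DESeq2, 1 of the 10 passed, counts to which that share does not apply. Of the 21 tested salvage and breakdown genes 2 passed in edgeR, and they are named here because they passed. UPP1, uridine phosphorylase, had 28.2 to 30.7 CPM under JQ1 and 66.6 to 71.0 CPM under DMSO in VHL-negative cells, and 40.6 to 44.8 CPM under JQ1 and 55.5 to 62.1 CPM under DMSO in VHL-positive cells. Its difference, VHL-negative minus VHL-positive, was log2 -0.76 (edgeR adjusted p = 0.0275). AMPD2, an AMP deaminase, had 61.2 to 70.9 CPM under JQ1 and 152 to 182 CPM under DMSO in VHL-negative cells, and 48.9 to 55.1 CPM under JQ1 and 66.2 to 82.2 CPM under DMSO in VHL-positive cells, a difference of log2 -0.80 (edgeR adjusted p = 0.0431). Both genes fell in both lines. Leaving out 1 library at a time, the difference ran from log2 -0.83 to -0.73 for UPP1 and from log2 -0.90 to -0.72 for AMPD2. UPP1 missed the threshold in 9 of 24 alternatives (adjusted p 9.01e-05 to 0.262) and AMPD2 in 14 of 24 (adjusted p 0.00236 to 0.287).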

How the results depend on the processing

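Over 50 results (10 enzymes in 5 comparisons) and 1240 alternative values, 1121 kept direction and side of the threshold, 21 lost the call, 30 gained it and 68 changed sign, all of the last among changes that had not passed. In the main fit 32.1% and 31.8% of all tested genes were called for JQ1 in VHL-negative and VHL-positive cells. For VHL status under DMSO and JQ1 it was 30.7% and 40.9%, and for the difference 1.21%. Where an alternative is given with its count of enzymes only, that count stands without a background. With total counts alone, the median of all genes moved to log2 -0.14 for JQ1 in VHL-positive cells, to 0.19 for VHL status under JQ1 and to 0.11 for the difference between JQ1 effects, against -0.03, 0.03 and 0.01, and the splits of higher and lower genes became 2069 and 3998, 5152 and 3148, and 112 and 87, against 3167 and 3422, 4082 and 4397, and 103 and 147. The same setting called 6 enzymes for JQ1 in VHL-positive cells (4 otherwise, PAICS -0.44 and CTPS1 -0.42 being added) and 2 for VHL status under DMSO, and gave UMPS -0.076 for JQ1 in VHL-positive cells, PFAS 0.023 for VHL status under DMSO, PFAS 0.031, ATIC 0.054, UMPS 0.11 and IMPDH1 0.13 for VHL status under JQ1, and PFAS 0.0080 and UMPS 0.0067 for the difference.

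At an adjusted p under 0.01, 4039 and 3989 genes were called for JQ1 in VHL-negative and VHL-positive cells (6649 and 6589 at 0.05), with 2 and 2 enzymes, 4137 and 5483 for VHL status under DMSO and JQ1 (6357 and 8479 at 0.05), and 47 for the difference (250 at 0.05). With no filter on low counts the difference called 1336 genes and 1 enzyme, IMPDH2 read -0.027 for JQ1 in VHL-negative cells, and ATIC -0.029 for the difference. DESeq2 called 1188 genes and 1 enzyme for the difference and 2 enzymes for VHL status under DMSO. With a filter of 1 CPM in 3 libraries UMPS read 0.0068 for JQ1 in VHL-negative cells, and UMPS and IMPDH1 0.011 and 0.032 for VHL status under JQ1. With limma-voom IMPDH2 read -0.0033 for JQ1 in VHL-negative cells. Among protein-coding genes only, VHL status under DMSO called 3 enzymes, JQ1 gave UMPS 0.045 and CTPS1 0.0029 in VHL-negative and UMPS -0.015 in VHL-positive cells, VHL status under JQ1 gave ATIC 0.016, UMPS 0.078 and IMPDH1 0.097, and the difference gave PFAS 0.054 and UMPS 0.060.

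Without JQ1 replicate 3 of both lines, JQ1 called 3957 and 4160 genes with 2 and 2 enzymes in VHL-negative and VHL-positive cells, VHL status under JQ1 called 4814 genes and 0 enzymes (edgeR), and the difference 25 genes. UMPS then read 0.0068 and -0.0014 for JQ1 in VHL-negative and VHL-positive cells, UMPS 0.041 and IMPDH1 0.055 for VHL status under JQ1, and UMPS 0.0082 for the difference. Without DMSO replicate 1 of both lines, UMPS read -0.0064 for JQ1 in VHL-positive cells and GART -0.039 for VHL status under DMSO, which called 2 enzymes. Without the DMSO library with least structural RNA in each line (chosen after seeing the data), PPAT read 0.19, CAD 0.014 and MYC 0.16 for JQ1 in VHL-positive cells, PFAS 0.073 for VHL status under DMSO, which called 3 enzymes, and the median of the 10 for JQ1 in VHL-positive cells was -0.01, against -0.21.

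Leaving out 1 library at a time, 2 to 5 enzymes were called for JQ1 in each line, 1 to 4 and 1 to 2 for VHL status under DMSO and JQ1, and 0 to 1 for the difference, which called 43 to 3510 genes, the highest without VHL-negative JQ1 replicate 1. For JQ1 and for VHL status the share of all tested genes in these fits is not given, so those counts stand without a background. Changes that had not passed then ranged across 0, in log2. For JQ1 in VHL-negative cells UMPS ran from -0.17 to 0.058, IMPDH1 from -0.020 to 0.28 and IMPDH2 from -0.20 to 0.21. For JQ1 in VHL-positive cells PPAT ran from -0.23 to 0.19, CAD from -0.16 to 0.015, UMPS from -0.039 to 0.17 and MYC from -0.27 to 0.16. For VHL status under DMSO PFAS ran from -0.11 to 0.042, ATIC from -0.39 to 0.092 and UMPS from -0.027 to 0.13. For VHL status under JQ1 PAICS ran from -0.097 to 0.27, ATIC from -0.29 to 0.015, UMPS from -0.19 to 0.049, IMPDH1 from -0.20 to 0.099 and IMPDH2 from -0.14 to 0.27. For the difference PPAT ran from -0.0095 to 0.42, ATIC from -0.20 to 0.28, UMPS from -0.22 to 0.014 and CTPS1 from -0.053 to 0.37. The cause of these moves was not tested.

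Same-numbered libraries did not deviate together as a rule (18 pairs, r -0.422 to 0.438, median 0.0402, 5 over 0.1, 5 of 12 libraries best with their own number). With 3 libraries per group these values cannot settle whether the numbers pair samples. A replicate block called 4, 4, 1, 1 and 0 enzymes in the 5 comparisons, as without it, and 272 genes for the difference, where AMPD2 no longer passed (adjusted p = 0.055).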
